A study of Caenorhabditis elegans with 2 samples.

Results

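The genes described are 10 Caenorhabditis elegans genes for RNA-binding proteins of the oocyte and early embryo, pos-1, mex-1, mex-3, mex-5, mex-6, oma-1, oma-2, puf-3, puf-5 and puf-11, taken from the 19973 protein-coding genes that Ensembl places on the 6 nuclear chromosomes. They were listed by name, with earlier results of these data known. A peak was given to a gene when its interval touched the gene or its summit, the position of highest signal, lay within 1000 bp of it. The data are chromatin immunoprecipitation followed by sequencing (ChIP-seq) for RBM-26, the product of rbm-26 (B0336.3), in whole young adults at 66 hours, with 2 biological replicates in 1 group. All animals were of strain OP801. They carried wgIs801, an insertion of the fosmid-based construct B0336.3::TY1 EGFP 3xFLAG with unc-119(+), in the unc-119 (tm4063) background, were synchronised as starved first-stage larvae after bleaching, and their chromatin was sonicated to 200 to 800 bp and, per the description, precipitated with an antibody against GFP, while the antibody label names B0336.3 itself. There is no second genotype, stage or tissue, so no condition was compared with another and no test was made. Control libraries were not analysed here. Whole animals were used, so binding in germ cells and in somatic cells cannot be told apart.

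In the worm germ line many mRNAs are made in the oocyte and kept silent until the embryo needs them. CCCH zinc-finger, KH-domain and PUF proteins bind the 3′ ends of such mRNAs and decide when and in which cell they are translated, which places cell fate regulators in the anterior or posterior daughters of the zygote. RBM-26 itself is an RNA-binding protein whose human relatives work in nuclear RNA decay, and ChIP-seq reports the chromatin it is found near, not the RNA that it binds.

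The authors' conservative peak list holds 3045 rows, which passed an irreproducible discovery rate (IDR) threshold between the replicates, and 18 of these rows, in 14 separate regions, belong to the 10 genes. Each peak has a signal, the authors' own deposited value, which can be compared only within a list. The number of reads behind it is not known, since the lists give no read totals. A region was placed at a gene's start or end when its summit lay within 500 bp of it.

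The sequence under the summits is shown first, since 3 of the start regions share a word. Each window is 101 bp centred on the summit, read 5′ to 3′ along the gene's strand from the RefSeq WBcel235 genome, which has the same chromosome lengths as ce11, the build of the peak lists. In the first group, which covers mex-1 (chrII:11968409-11968509, plus strand), puf-3 (chrIV:13512333-13512433, minus strand) and puf-11 (chrIV:6421327-6421427, plus strand), capitals mark GCGGGAAATTTTGG, the longest word that any 3 of the 14 member windows share on either strand.
mex-1 start: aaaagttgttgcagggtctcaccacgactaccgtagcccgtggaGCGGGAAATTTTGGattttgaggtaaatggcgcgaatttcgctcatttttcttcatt
puf-3 start: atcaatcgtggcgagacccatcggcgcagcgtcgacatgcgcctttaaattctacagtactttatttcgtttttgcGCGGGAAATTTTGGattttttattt
puf-11 start: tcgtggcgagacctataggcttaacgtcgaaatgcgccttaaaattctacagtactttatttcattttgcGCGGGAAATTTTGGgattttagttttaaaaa

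This 14-letter word is found at 5 places in the genome, counting both strands, and 3 of them are these. The middle of the word lies 177 bp upstream of the annotated start of mex-1, 189 bp upstream of that of puf-3 and 181 bp upstream of that of puf-11. It is 1 bp, 32 bp and 27 bp from the respective summits. Among the 101 bp windows of all 2416 merged conservative regions, 3 (0.124%) hold the word, the same 3. The remaining 2 places lie together inside a single other gene, with no conservative row over them. The first 8 letters, GCGGGAAA, match a common form of the site of E2F-family transcription factors and occur in 43 of the 2416 windows (1.78%). They occur at 7485 places in the genome, counting both strands. Their share of genome windows was not computed, so whether 1.78% is high cannot be told here. The 14-letter word was found by comparing the windows, so these counts describe it and test nothing. puf-3 and puf-11 are near copies of each other: their start windows are 78.5% identical with gaps counted, and their longest common word has 22 letters. mex-1 is not a copy of them, with 52.8% identity to the puf-3 window and 46.8% to the puf-11 window.

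The other start windows, those of pos-1 (chrV:8413767-8413867) and mex-5 (chrIV:13353417-13353517), both on the plus strand, do not hold the word. Here capitals mark runs of at least 6 T or A.
pos-1 start: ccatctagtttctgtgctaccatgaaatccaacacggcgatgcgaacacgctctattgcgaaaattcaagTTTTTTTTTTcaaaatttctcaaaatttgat
mex-5 start: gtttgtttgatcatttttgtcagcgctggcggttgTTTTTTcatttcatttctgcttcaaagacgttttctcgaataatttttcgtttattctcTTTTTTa

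Among the end regions, the oma-1 window (chrIV:8891211-8891311, plus strand, TATAAA in capitals) and the oma-2 window (chrV:8031285-8031385, plus strand, runs of at least 6 T or A in capitals) are shown because they stand at the ends of a pair of related genes and touch no annotated UTR. The windows are 43.5% identical, while the coding sequences of these genes are 68.9% identical.
oma-1 end: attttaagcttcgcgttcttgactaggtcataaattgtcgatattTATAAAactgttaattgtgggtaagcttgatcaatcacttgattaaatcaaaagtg
oma-2 end: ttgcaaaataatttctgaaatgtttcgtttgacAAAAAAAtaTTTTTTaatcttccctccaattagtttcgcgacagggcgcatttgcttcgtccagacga

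A conservative peak was found at 9 of the 10 genes, all but mex-6, where 14.6% of all protein-coding genes and 14.3% of the 13385 genes in the members' length range (1169 to 6986 bp) had one. 8 genes had a summit within 500 bp of the annotated end, against 6.88% of all genes and 6.42% of those in the length range. 5 genes had one within 500 bp of the start, against 6.29%. 4 genes (pos-1, mex-1, mex-5 and puf-3) had both, against 1.82% of all genes and 1.61% of those in the length range. None had a summit in the body, over 500 bp from both start and end, but such summits were rare, at 2.65% of the 16311 genes longer than 1000 bp, and so few genes would not show a difference. The remaining region lay in the flank of mex-1. Because the 10 genes were listed with earlier results of these data known, these shares describe them and test nothing.

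**Figure D1:**
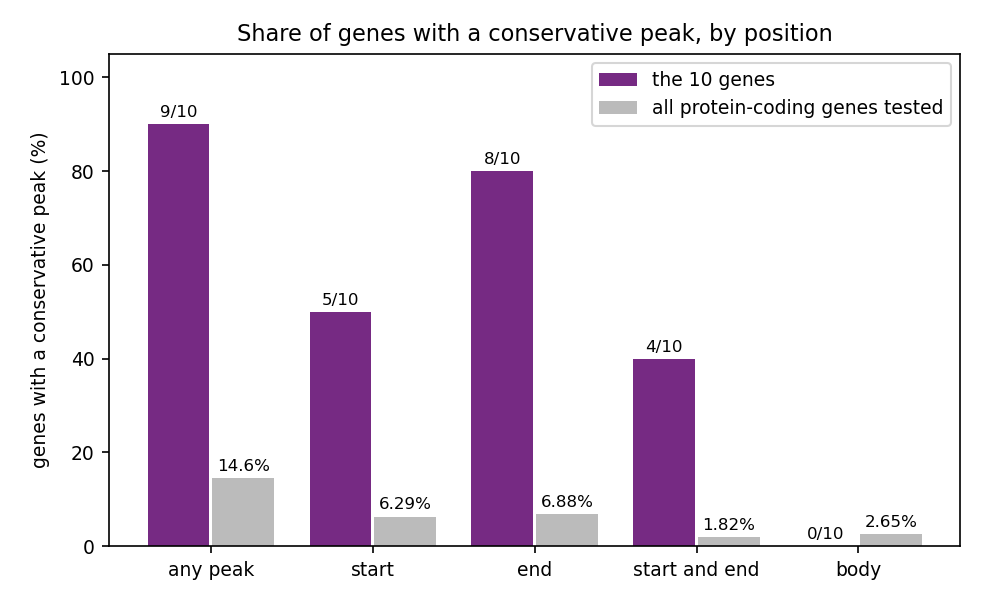
Percentage of genes with a conservative peak (y axis) by where the summit lies (x axis), for the 10 genes (purple, counts above the bars) and for all protein-coding genes tested (grey, percentages above the bars). The bars for any peak reach 9 of 10 genes against 14.6%, and those for the gene end 8 of 10 against 6.88%. The 10 genes were listed with earlier results of these data known.

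All 5 start summits lay upstream of the annotated start, by 178 to 269 bp, with signals of 120 to 283. Of the 8 end summits, 6 lay past the annotated end and 2 before it, from 163 bp inside to 262 bp outside, with signals of 112 to 313. The side was not always the same in the replicates. Relative to the end, the matched pos-1 summits were at -53 and -18 bp in replicates 1 and 2. Those of mex-5 were at 82 and -36 bp, and those of mex-3 at 81 and -119 bp. The other end regions kept their side in both replicates. Worm genes are densely packed, and a summit near one gene's end can be near another gene's start. 4 of the 8 end regions (oma-1, oma-2, mex-3 and puf-5) had another protein-coding start within 500 bp and 4 (pos-1, mex-1, mex-5 and puf-3) had none. By the stricter count, an end region with no other protein-coding start within 500 bp, 4 of the 10 genes and 4.45% of all genes had one. Among all 2416 conservative regions 23.7% had a protein-coding end and no start within 500 bp, and among the 14 member regions 4 did. In 33.8% of all regions neither a start nor an end was that near, and in none of the 14. The 14 regions were taken for touching a listed gene or lying within 1000 bp of it. The 2416 regions carry no such condition, so nearness to a start or end follows in part from the rule. Genes for small RNAs (miRNA, tRNA, snRNA and snoRNA) stood within 250 bp of 0 of the 14 summits and of 10.6% of the summits of all 2416 regions.

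**Figure D2:**
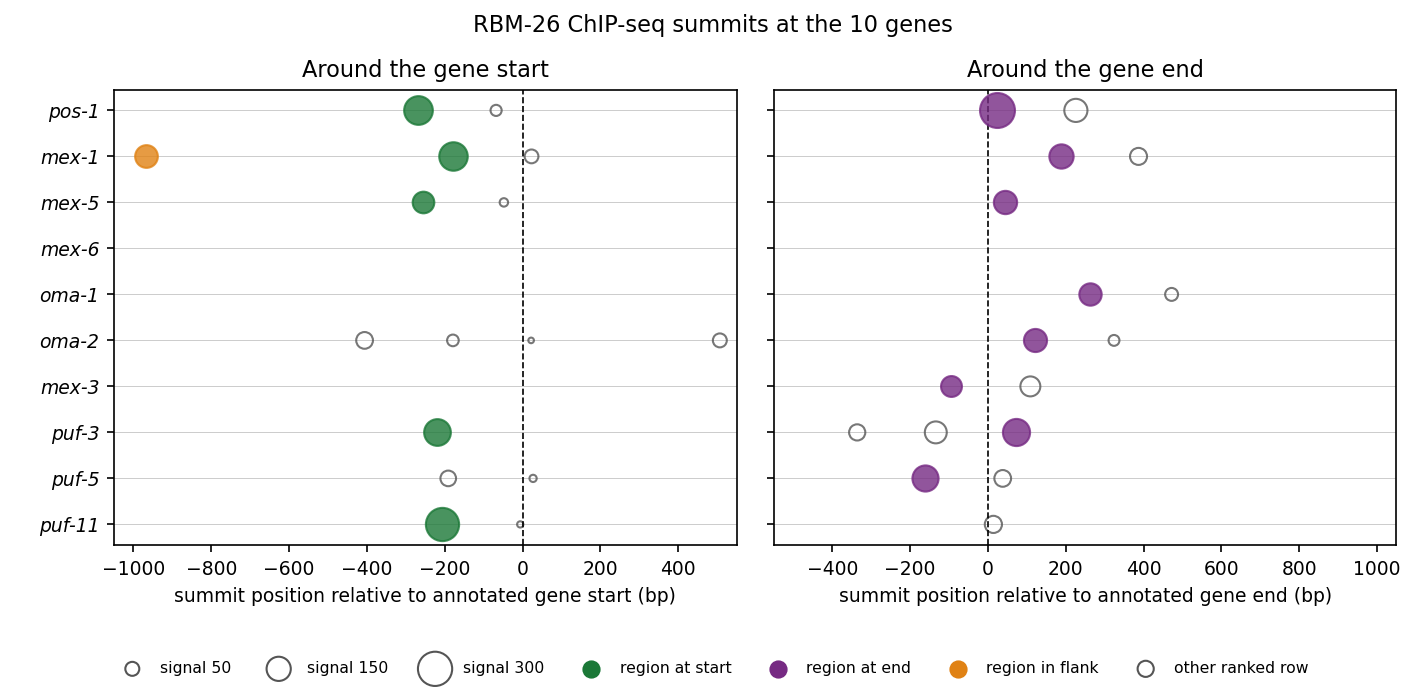
Position of each summit in bp from the annotated gene start (left) and end (right) for the 10 genes (rows); circle area is the deposited signal. Filled circles are the 14 conservative regions and open circles other rows of the between-replicate ranked list; filled start circles lie 178 to 269 bp upstream and filled end circles between -163 and 262 bp.

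pos-1 (WBGene00004078, chrV:8414086-8415254, plus strand) encodes a CCCH zinc-finger protein of the posterior blastomeres that represses translation of maternal mRNAs and is needed for the germ lineage. It had the highest signal of the 10 genes. Its end region, with the summit 24 bp past the end, had a signal of 313 and rank 174 of 3045, with 123 in replicate 1 (rank 429 of 40147 ranked rows) and 193 in replicate 2 (rank 81 of 36577). Its start region, 269 bp upstream, had a signal of 211 and rank 551, with 93.3 and 116 in replicates 1 and 2. Both regions were in both replicates' thresholded lists. The start summit is 335 bp from the start of vha-18, a vacuolar ATPase subunit gene read in the opposite direction, and the end summit is 370 bp from the end of lmd-3, a convergent gene.

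mex-1 (WBGene00003228, chrII:11968637-11972330, plus strand) encodes a CCCH zinc-finger protein that keeps germ-line factors in the posterior of the early embryo. It had 3 regions, more than any other of the 10 genes. The start region, 178 bp upstream, had a signal of 208 and rank 576, and 106 and 103 in replicates 1 and 2. The end region, 188 bp past the end and in a coding exon of the convergent gene acbp-6, had a signal of 151 and rank 1238, and 94.5 and 72.7 in the replicates. Its flank region, 969 bp upstream of mex-1, is nearer to W03C9.5, whose start is 124 bp away and which is read in the opposite direction. Its signal was 132 (rank 1613), with 76.7 in replicate 1 and 60.6 in replicate 2, where it did not pass the threshold.

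mex-5 (WBGene00003230, chrIV:13353723-13356104, plus strand) and mex-6 (WBGene00003231, chrII:9524174-9526359, plus strand) encode related, partly redundant CCCH zinc-finger proteins that set up the anterior of the zygote. Their coding sequences are 76.8% identical, but only mex-5 had conservative peaks. mex-5 had a start region 256 bp upstream with a signal of 120 (rank 1912) and an end region 44 bp past the end with a signal of 139 (rank 1439). The start region is 274 bp from the start of rec-8, a meiotic cohesin gene read in the opposite direction, and the end region lies in the 3′ UTR of the convergent gene W02A2.8. Each was thresholded in 1 replicate: the start region had 54.2 in replicate 1, under the threshold, and 64.1 in replicate 2, and the end region 88.1 in replicate 1 and 58.4 in replicate 2, under the threshold. mex-6 had no row in either thresholded list of the whole series. Replicate 2 alone had a thresholded row 54 bp past the mex-6 end, with a signal of 63.9 and rank 1971 of 36577. In that replicate the mex-5 end row ranked lower, at 2370. The ranked list of replicate 1 had no row within 500 bp of the mex-6 end. Every word of 36 bp within 300 bp of the mex-6 summit occurred once in the genome.

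oma-1 (WBGene00003864, chrIV:8888976-8890999, plus strand) and oma-2 (WBGene00003865, chrV:8029439-8031214, plus strand) encode redundant CCCH zinc-finger proteins that are required for oocyte maturation and hold oocyte mRNAs in a repressed state. The pattern was alike in both genes: a region with its highest summit past the end, thresholded in both replicates, and none at the start. The oma-1 region, 262 bp past the end and 201 bp upstream of the next gene spr-2, had a signal of 128 (rank 1693), with 72.4 and 65.4 in replicates 1 and 2. The oma-2 region, 121 bp past the end and 76 bp upstream of vars-1, a valine tRNA synthetase gene, had a signal of 137 (rank 1483), with 56.9 and 71.5 in the replicates. In both genes this summit thus lies between the gene and the start of a neighbour on the same strand. The oma-2 region itself reaches further: it also holds a conservative row with a signal of 30.2, whose summit is in a coding exon of vars-1. oma-2 also had a start row under the threshold, with a signal of 71.7 at 406 bp upstream, and oma-1 had no start row in the between-replicate ranked list.

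mex-3 (WBGene00003229, plus strand) is the longest of the 10 genes, with 6986 bp, and encodes a KH-domain protein that represses the homeobox mRNA pal-1 in the anterior of the embryo. It had 1 region, 94 bp before its end and in its own 3′ UTR, with the lowest signal of the 14, 112 (rank 2154). The start of F53G12.4 is 161 bp away. The matched rows had signals of 72.3 in replicate 1 and 65.5 in replicate 2, where the row did not pass the threshold. The summit of the replicate 1 row is 175 bp from that of the region. It lies 81 bp past the mex-3 end, in the 5′ UTR of F53G12.4 and 14 bp from the start of that gene.

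puf-3 (WBGene00004239, chrIV:13510307-13512162, minus strand), puf-11 (WBGene00022257, chrIV:6421585-6423497, plus strand) and puf-5 (WBGene00004241, chrII:8575541-8577787, plus strand) encode PUF-repeat proteins that act together in oocyte formation by repressing mRNAs. The coding sequences of puf-3 and puf-11 are 90.3% identical, while puf-5 shares 58.9% with puf-3 and 58.5% with puf-11. puf-11 had the strongest start region of the 10 genes, 208 bp upstream, with a signal of 283 (rank 233) and 146 in each replicate's list (ranks 250 and 216). puf-3 had a start region at a like distance, 221 bp upstream, with a signal of 183 (rank 800) and 90.1 and 91.2 in replicates 1 and 2. These start regions were thresholded in both replicates.

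puf-3 lies inside afmd-2, a gene on the opposite strand, so its start region is in an intron and its end region in a coding exon of afmd-2, and the lists do not say which of these genes a peak belongs to. The puf-3 end region, 71 bp past the end, had a signal of 189 (rank 752), with 136 in replicate 2 (rank 273) and 62.2 in replicate 1 (rank 2178), where it did not pass the threshold. The puf-5 end region, 163 bp before the end and in its own 3′ UTR, had a signal of 175 (rank 920), with 135 in replicate 2 (rank 284) and 49.4 in replicate 1 (rank 3446), also under the threshold. The start of F54C9.9 is 425 bp from it. These are the widest gaps in rank between replicates among the 14 regions. At the puf-11 end there was only a row under the threshold, 14 bp past the end, with a signal of 75.5 (rank 4559 of 38716 ranked rows), 14.8 in replicate 1 and 56.5 in replicate 2. Near that summit 74% of the 36 bp words occurred once in the genome, the lowest share of the positions examined.

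**Figure D3:**
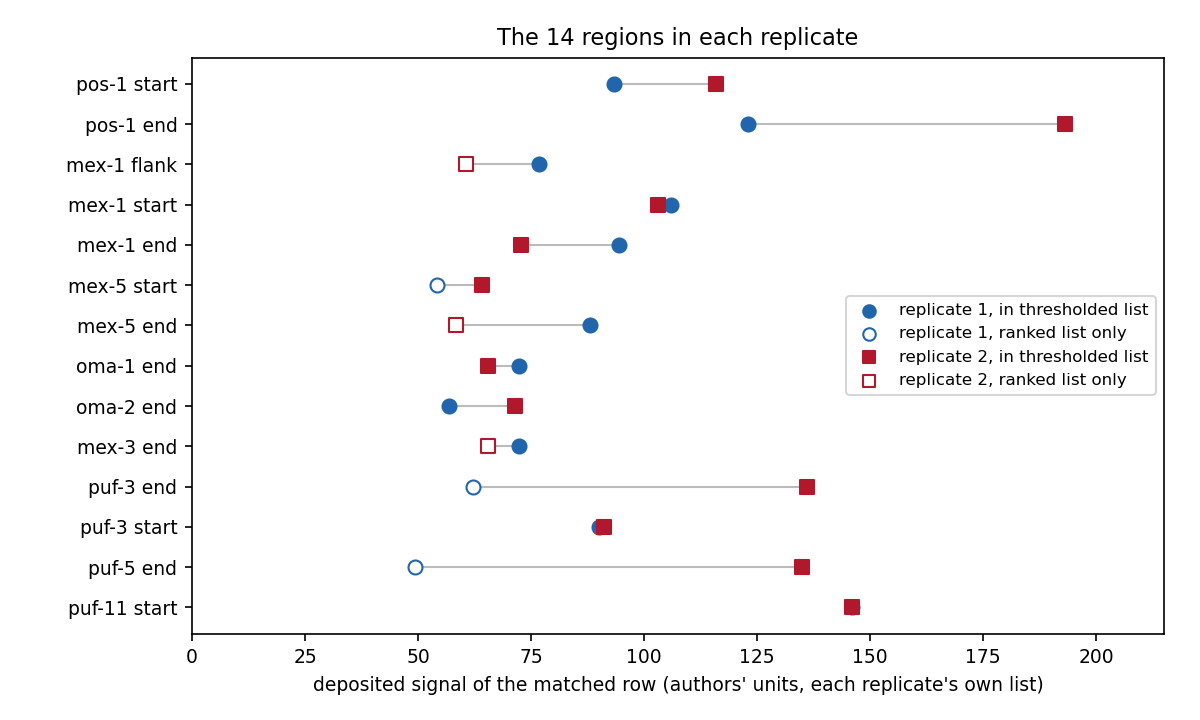
Deposited signal of the row matched to each of the 14 regions (rows) in replicate 1 (blue circles) and replicate 2 (red squares), each on its own list's scale (x axis); filled symbols are rows in that replicate's thresholded list. Signals are not comparable between the replicates' lists; by rank the puf-5 end is at 3446 in replicate 1 and 284 in replicate 2, the puf-3 end at 2178 and 273, and the puf-11 start at 250 and 216.

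Each of the 14 regions had a matched row, within 200 bp of its summit, in the ranked list of both replicates. Conservative rows had to pass an IDR threshold between the replicates, so such matches follow largely from how the list was made. The summit shifts had a median of 24 bp and reached 175 bp. 8 regions were thresholded in both replicates, 3 in replicate 1 alone (the mex-1 flank, the mex-5 end and the mex-3 end) and 3 in replicate 2 alone (the mex-5 start, the puf-3 end and the puf-5 end). By gene, 8 of 10 had a thresholded peak in replicate 1 (11.7% of all genes) and 9 of 10 in replicate 2 (10.3%). The replicate 2 genes include mex-6 and leave out mex-3. 6 genes, pos-1, mex-1, oma-1, oma-2, puf-3 and puf-11, had a row in replicate 1 that overlapped one in replicate 2, against 7.66% of all genes. At the gene end alone, 6 genes had a thresholded summit in replicate 1 (5.01% of all genes) and 7, mex-6 among them, in replicate 2 (5.07%). The wider thresholded list of the series gave the same 9 genes as the conservative one (15.7% of all genes).

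Going below the threshold, the between-replicate ranked list of 38716 rows gave 59 rows to the 10 genes, 41 of them with a −log10 global IDR under 2. All 10 genes had a row there, as did 46.7% of all genes, and 9 had one within 500 bp of the end, as did 32.3%. In none of these 9 genes was a body row above the strongest end row, and in 7 no start row was above it, oma-1 and mex-3 having no start row at all. The same held for most genes: of 5399 genes over 1000 bp with an end row, 76.1% had it above every body row and 69.1% above every start row. Among the 1087 of these with a conservative end summit the shares were 96.3% and 87.2%, and 8 and 7 of the 8 members among them. The strongest body rows had signals of 20.2 to 58.1 in the 9 genes that had one, and the strongest end rows 75.5 or more. The row at 75.5, the puf-11 end, had a −log10 global IDR of only 0.31. In this list mex-6 was the exception at both edges, with body rows alone and a highest signal of 44.4. The replicates' own ranked lists broke the order in places. In replicate 1 the puf-11 body row (27.9) was above its end row (14.8), and the puf-3 start row (90.1) above its end row (62.2). In replicate 2 the mex-5 start row (64.1) was above its end row (58.4). The other orders of these 9 genes were kept in both replicates' lists.

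**Figure D4:**
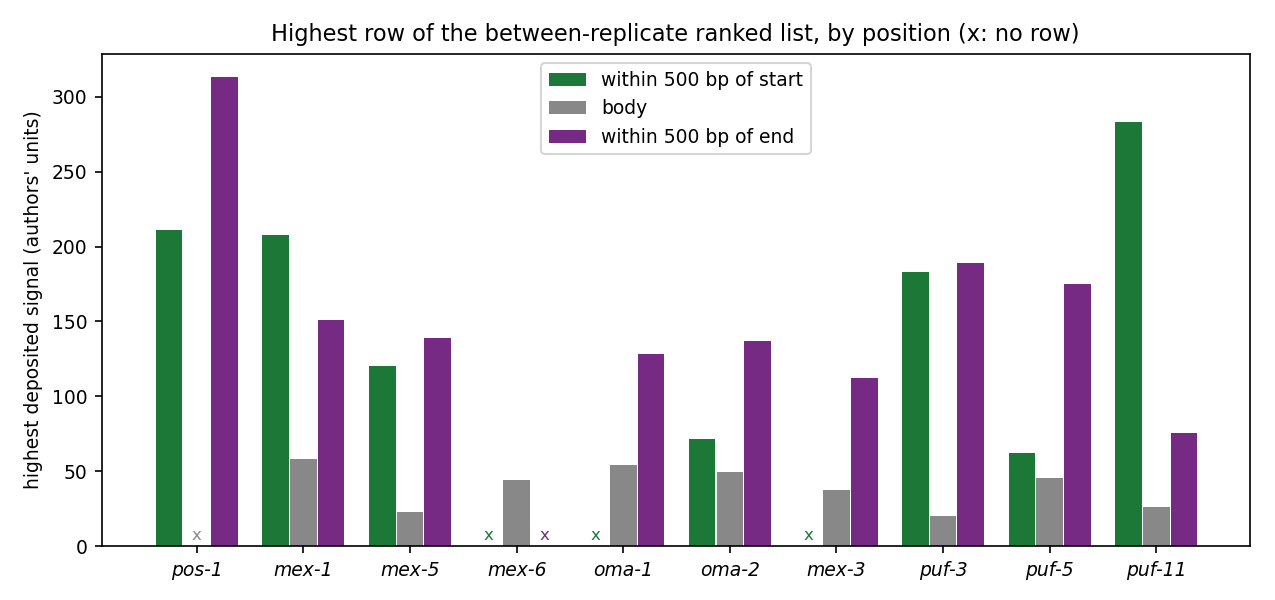
Highest deposited signal (y axis) in the between-replicate ranked list within 500 bp of the start (green), in the body (grey) and within 500 bp of the end (purple) for each gene (x axis); an x marks a position with no row. The grey bars lie between 20.2 and 58.1, and the purple bars at 75.5 or above, with none for mex-6.

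The sequence at the summits was nearly all present once in the genome, which bears on whether reads from the related genes could be told apart. In 13 of the 14 regions every 36 bp word within 300 bp of the summit occurred once, puf-3 and puf-11 starts included. At the pos-1 start 91.9% did. The length of the reads is not given in the sources used here.

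Among other genes of this biology, from 5 lists, 38 of the 80 found in the annotation (47.5%) had a conservative peak, against the 14.6% of all genes. The lists were chosen with earlier results of these data known. Of the 80, 23 had a summit at the end, 15 at the start and 7 at both, against 6.88%, 6.29% and 1.82% of all genes. Of the other PUF genes, 2 of 7 had a peak, puf-9 and puf-12. The puf-9 summit, 293 bp upstream of its start with a signal of 356, lies in exons of W06B11.7 and W06B11.9. The puf-12 summit, with a signal of 116, is nearer to pas-7. The count of 2 was 1 in either replicate's list alone, 1 with a 500 bp window and 0 when only intervals touching the gene counted. The germ-line PUF genes fbf-1 and fbf-2 had none. Of the other CCCH zinc-finger genes 4 of 9 did. pie-1, which keeps the embryonic germ line from transcribing, had a summit 92 bp before its end with a signal of 166. That summit is 69 bp from the end of snr-6. unk-1 (191) and ccch-1 (189) had theirs in the gene body and moe-3 (95.6), a relative of oma-1, at its start.

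Among the partners and other translational regulators 15 of 29 had a peak, 10 of them at the end (6.88% of all genes). spn-4, whose RNA-binding protein acts with these proteins in the early embryo, had both an end region (283) and a start region (183). The repressed-mRNA granule genes cgh-1 (252) and car-1 (240) had their highest summit at the end, as did the cap-binding gene ife-3 (200), the deadenylase gene ccf-1 (104, with the start of znf-593 at 17 bp) and the regulators nos-1 (148), nos-3 (118), gld-1 (103) and lin-41 (89.7). The highest values, larp-1 at 534 and ifet-1 at 332, were at summits nearer to other genes, 307 bp from wip-1 and 249 bp from rps-1. The remaining genes with a peak were atx-2 (228), lin-28 (110) and ife-1 (145) at the start and pab-1 (126) in the body.

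Of 13 genes whose mRNAs are known targets of these proteins, 6 had a peak. The yolk receptor gene rme-2 had its highest signal at the start (196). zif-1 (143) and skn-1 (176) had theirs at the end, cye-1 (177) had its in the body, 25 bp from a tRNA gene, and spn-4 and lin-41 are also among the partners above. The Notch receptor gene glp-1, the best known of these targets, had none.

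Of 25 genes for egg activation, polarity and germ granules, 13 had a peak, 7 at the start and 9 at the end, 4 of these at both. Of all genes, 6.29% had a summit at the start, 6.88% at the end and 1.82% at both. egg-4 (229), egg-1 (188), chs-1 (180), pkc-3 (272), par-5 (177) and par-3 (155) had their highest summit at the start. The par-5 summit is 283 bp from the par-5 start and 1 bp from that of M117.3. The germ granule genes glh-1 (184) and pgl-1 (132) and the kinase genes plk-1 (139) and plk-2 (132) had it at the end. mbk-2 (132), the kinase that marks OMA proteins for destruction, had it in the body. egg-5 (607) and par-2 (199) had it in the upstream flank, where a spliced-leader RNA gene or another start lay nearer. The lists differ in gene length and in crowding by neighbours, which were not matched, so the counts describe each list and do not compare them.

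**Figure D5:**
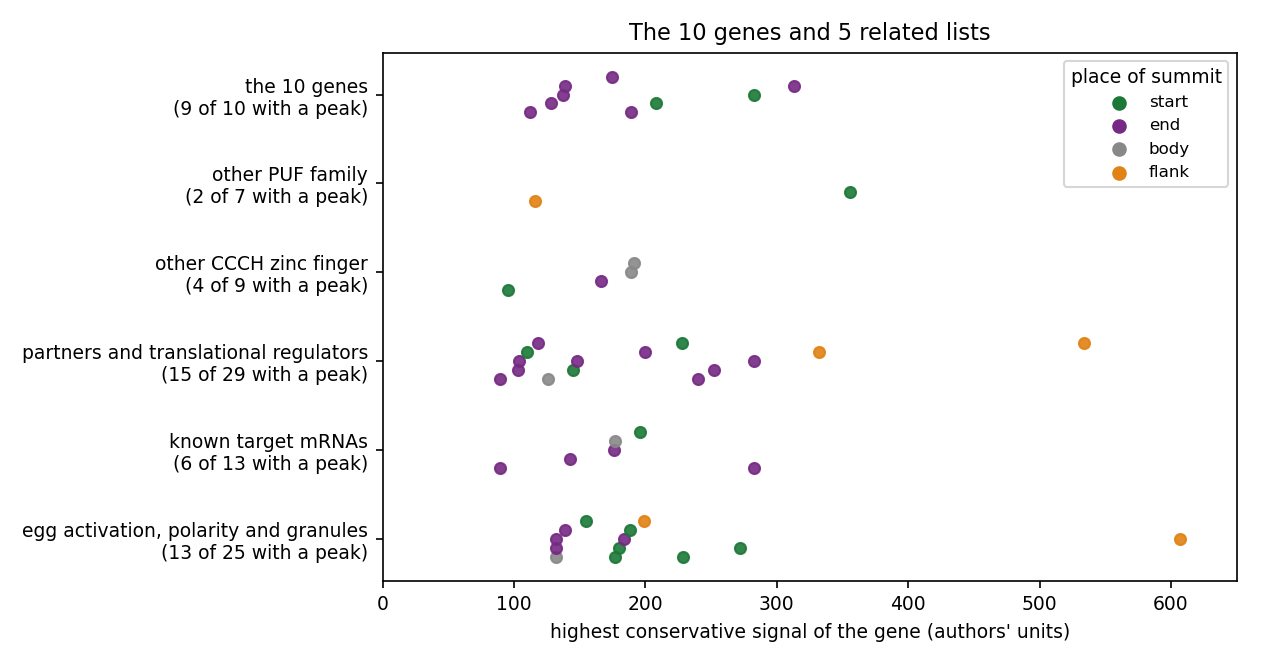
Highest conservative signal (x axis) of each gene with a peak among the 10 genes and the 5 related lists (rows), coloured by where the summit lies; the counts beside each row give genes with a peak of genes found. Those of the 10 genes with a peak, all but mex-6, range from 112 to 313 and most of their points are at the end.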

How the data were processed

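ChIP-seq peak lists for RBM-26 from 2 biological replicates were used. Per the labels the lists are on ce11. The labels and headers name no aligner, peak caller or read total (not given in the sources used here), which leaves the depth unknown. The authors deposited, for each replicate and for the whole series, lists thresholded on IDR and longer ranked lists. Column 7 is the authors' deposited signal, column 5 their deposited score, capped at 1000, and the IDR columns are deposited −log10 values. Of the series ranked lists, the one called between-replicate here had the larger share of its per-replicate intervals among the replicates' own ranked rows. The 18 conservative rows of the 10 genes were in both series ranked lists, so membership did not tell these lists apart. Global IDR values of conservative rows were taken from the between-replicate list, where the lowest −log10 value was 2. Of the series ranked lists, 4 columns of per-replicate signals were not used.

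Genes were taken from Ensembl release 115. A summit is the row's start plus its deposited offset. In the conservative list 47.3% of the rows have the commonest width of 620 bp, and their summit is the centre, so it is less precise. Overlapping rows were merged, keeping the row of highest signal. A replicate's match is its highest row within 200 bp of the summit. Shares of genes with a peak are descriptive; no test was made, as there is 1 group. Peak assignment was tested on simulated data. Words were counted on both strands of the RefSeq genome, and identities come from global alignments with Biopython 1.88. Python 3.11.15, pandas 2.3.3, numpy 2.4.6 and matplotlib 3.10.9 were used. The members and lists were chosen with earlier results of these data known. The named genes are all 10 members, every gene of the related lists with a conservative peak, and neighbours at member summits. Rows at a global IDR of 0.01 or less were thresholded by the authors.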

Additional observations from a re-analysis of the deposited data

How the results depend on the processing

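The count of 9 genes with a conservative peak ranged from 6 to 9 over 10 alternatives. It was 6 when only intervals touching the gene counted (10.3% of all genes) and at a global IDR of 0.001 (8.16%), 7 when each summit went to its nearest gene (9.96%), and 8 without rows of the commonest width (7.83%). It was 9 without replicate 1, with mex-6 gained and mex-3 lost, and 8 without replicate 2, with puf-5 lost. The 6 genes with overlapping rows in both replicates stayed 6 with 50% overlap and with summits within 200 bp. The count of 38 related genes lay between 30 and 39, and that of the other PUF genes, 2, between 0 and 2.

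The count at the gene end, a result and window chosen after seeing the data, was 8. It fell to 4 when end regions with another protein-coding start within 500 bp were left out (4.45% of all genes), and to 5 at a global IDR of 0.001 (3.58% of all genes). It was 7 with a 200 bp window (4.26%) and without rows of the commonest width, and 8 in the wider list. Without replicate 1 it was 7, mex-6 among them, and without replicate 2 it was 6. The lowest share of unique words at a summit, 91.9% with words of 36 bp, was 96.7% with 50 bp and 100% with 100 bp. Signals from 1 replicate's list are on that list's own scale and lay below the conservative ones. No paired analysis was possible because there is 1 group. Unknown depth limits statements about genes without a peak: mex-6 was not called here, which does not show that RBM-26 is absent.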

Other observations

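The base composition of the member windows differed among them. Over the 14 windows of 101 bp the GC content ran from 27.7% at the mex-5 end to 57.4% at the mex-1 flank, with a median of 36.1%. The median over all 2416 conservative regions was 46.5%, with 39.6% and 52.5% as the 25th and 75th percentiles, and the genome as a whole has 35.4%.

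Short motifs were searched on both strands. TTTTTT, a run of 6 T, was in 7 of the 14 member windows, in 23.3% of all regions and in 40.9% of 101 bp windows laid end to end over the genome. GAGAGA was in 0 of the 14, 18.3% of regions and 5.18% of genome windows. AATAAA was in 3 of the 14, 14.1% of regions and 21.6% of genome windows. TATAAA was in 2 of the 14, 5.84% and 11.2%, and TTTCAG in 3, 9.85% and 19.9%. These matches describe letters in a window and nothing about binding.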
